A study of Lithospermum officinale with 3 samples.

Results

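A group of 230 unigenes was graded along the plant, highest in leaf, intermediate in stem and lowest in root, out of 77047 unigenes measured by RNA sequencing in *Lithospermum officinale*, a perennial herb of the borage family. The series title gives the search for genes of specialized metabolism as the aim of the study. The libraries came from leaf, stem and root tissue of plants aged 2 years that grew outdoors without treatment, and each tissue had 1 library. The values below thus have no replicate error behind them, and tissues could not be tested against each other. The sources used here do not state whether 1 plant gave all 3 tissues or whether material of several plants was pooled.

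A unigene is a sequence assembled from the reads without a genome, and 1 gene may be split over several unigenes. The files do not pair unigene numbers with gene names, and no reference was used here, so functions and genome positions were not analysed, no tissue marker genes could be looked up, and members are named by number only. As background, leaf blades are the main site of photosynthesis, green stems photosynthesize as well and carry water and sugars between leaf and root, and roots take up water and minerals. Roots of several related species store red naphthoquinone pigments, the shikonins. None of these functions is assigned to a unigene here.

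The members were chosen on the measured counts themselves. The 100 unigenes with the most counts over the 3 libraries were set aside, and each library was scaled to the sum of its remaining counts. Of the remaining unigenes, 2682 had 100 or more counts in leaf. The 230 members are those whose leaf to stem ratio was at least 2 and below 4 and whose stem to root ratio was at least 4, with a count of 0 taken as 0.5. The gradient itself is thus a description and not a finding. Of the 2682 unigenes, 13.8% had a leaf to stem ratio in that range, 16.4% had a ratio of 2 or more, 25.7% had a stem to root ratio of 4 or more, and 8.58% met both conditions of the rule. These shares were fixed by the rule, and nothing is read from them.

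Expected counts summed to 3490670 in the leaf library, 4469828 in stem and 10045956 in root. The 100 unigenes set aside took 59.0% of all leaf counts, 43.5% in stem and 56.7% in root, which left 1432056, 2525988 and 4351427 counts in the same order. Of the 100 set aside, 3 had ratios inside the same limits and are not among the 230. In bulk tissue, fewer cells of a type and less RNA per cell cannot be told apart.

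Together the graded unigenes held a larger share of the leaf library than of the root library, which the rule requires. They held 8.06% of the leaf counts outside the 100 most counted unigenes (95% exact binomial interval 8.02% to 8.11%), 3.18% of those in stem (3.16% to 3.20%) and 0.207% of those in root (0.203% to 0.211%). These intervals cover counting error only. Whether several reads stem from 1 molecule is not known. In TPM (a level per transcript length, with the same total in each library), their summed level was 27706 TPM in leaf, with 15554 TPM in stem and 1078 in root.

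The level of a member was a median of 58.7 TPM in leaf, 32.4 in stem and 2.36 in root. The levels spread widely in each tissue, with quartiles of 30.8 and 141 TPM in leaf, 17.1 and 74.6 TPM in stem, and 1.02 and 5.42 TPM in root. A level of 100 TPM was reached by 83 members in leaf, 45 in stem and 0 in root. In root, 173 of the 230 still reached 1 TPM and 26 reached 10 TPM, and the highest member there stood at 31.6 TPM. Root levels under 1 TPM were found for 57 members (24.8%), against 98 of the 2452 unigenes with 100 or more leaf counts that were not graded (3.997%). The rule requires low root levels relative to leaf and stem, so this contrast is part of the choice of members.

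**Figure D1:**
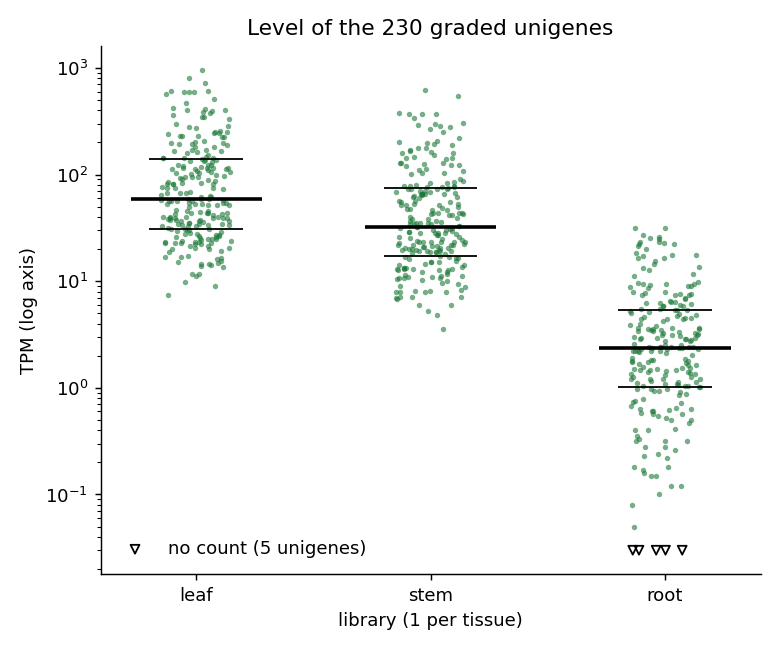
Level of the 230 graded unigenes in the leaf, stem and root libraries, in TPM on a log axis. Each point is 1 unigene, thick bars are medians (58.7, 32.4 and 2.36 TPM), thin bars are quartiles, and open triangles mark the 5 unigenes with no root count, drawn at an arbitrary low position.

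The graded unigenes were frequent among the stronger leaf transcripts, a property that the rule favours because leaf is the numerator of its ratio. Among the 2682 unigenes with 100 or more leaf counts, 38 of the 100 highest in leaf TPM were graded, against 14 of the 100 highest in stem and 0 of the 1000 highest in root. The share that was graded was 2.41% of the unigenes under 20 TPM in leaf, 7.89% of those from 20 to 50 TPM, 9.46% from 50 to 100 TPM, 21.4% from 100 to 200 TPM and 33.7% from 200 to 500 TPM. At 500 TPM and above, 10 of 18 unigenes were graded. Of all 2682 unigenes, 8.58% were graded. Unigenes with a stem to root ratio of 4 or more, graded or not, also took a larger share at each higher leaf level. Their share was 12.6%, 25.4%, 31.0%, 48.1%, 69.9% and 72.2% from the lowest leaf level to the highest. Of these unigenes, 21 of 110, 79 of 254, 47 of 154, 45 of 101, 28 of 58 and 10 of 13 were graded. The graded unigenes thus supply part of this rise, and whether the others follow leaf level in the same way was not tested.

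The signal was shared among many members. The 10 members with the most leaf counts held 23.7% of the members' leaf counts, and 33 members were needed to reach 50% of them. In stem 31 members and in root 28 members made up 50% of the members' counts. Of the 10 members highest in leaf TPM, 9 were also among the 10 highest in stem, and 4 were among the 10 highest in root. The stem and leaf orders are tied together by the narrow range of ratios that the rule allows.

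The strongest members in leaf were close in length to the typical member and stood much lower in root. Unigene39388 (1064 nt) stood at 958 TPM in leaf, 617 in stem and 11.2 in root, from 3250, 2596 and 71 counts. Its scaled leaf to stem ratio was 2.21 (95% interval 2.10 to 2.33) and its stem to root ratio was 63.0 (49.8 to 80.9). Unigene1165 (1213 nt) stood at 809 TPM in leaf, 540 in stem and 14.4 in root, from 3205, 2654 and 106 counts. Both lay near the lower end of the leaf to stem range and far above the required stem to root ratio. These intervals, exact conditional binomial ones, compare counts of a pair of libraries and not the tissues.

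The weakest members in leaf were among the longest, because a minimum of 100 leaf counts admits low TPM only in long unigenes. Unigene39488 (3689 nt) had 100 leaf counts, 87 stem counts and 2 root counts, which is 7.46 TPM in leaf, 5.24 in stem and 0.08 in root. Unigene55879 (3558 nt) had 116 leaf counts, 57 stem counts and 8 root counts, or 8.99 TPM in leaf, 3.56 in stem and 0.33 in root. The scaled leaf to stem ratio of Unigene39488 was 2.03, and that of Unigene55879 was 3.59.

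Most members lay in the lower part of the range of leaf to stem ratios that the rule allows. The leaf to stem ratio had a median of 2.53 and ran from 2.01 to 3.99, against a median of 1.06 for all 2682 unigenes. A ratio from 2 to below 2.5 was found for 110 members (47.8%), from 2.5 to below 3 for 66, from 3 to below 3.5 for 33 and from 3.5 to below 4 for 21. The members thus thin out toward the upper limit. They crowd at the lower one, where they border on unigenes with more even levels in the shoot. Of the 2682 unigenes, 197, 103, 44 and 27 lay in the same bins, so this thinning is not particular to the members. The graded share of these rose from 55.8% in the lowest bin to 77.8% in the highest. Median root levels of the members were 2.95, 2.14, 1.75 and 1.03 TPM in the same order of bins.

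**Figure D2:**
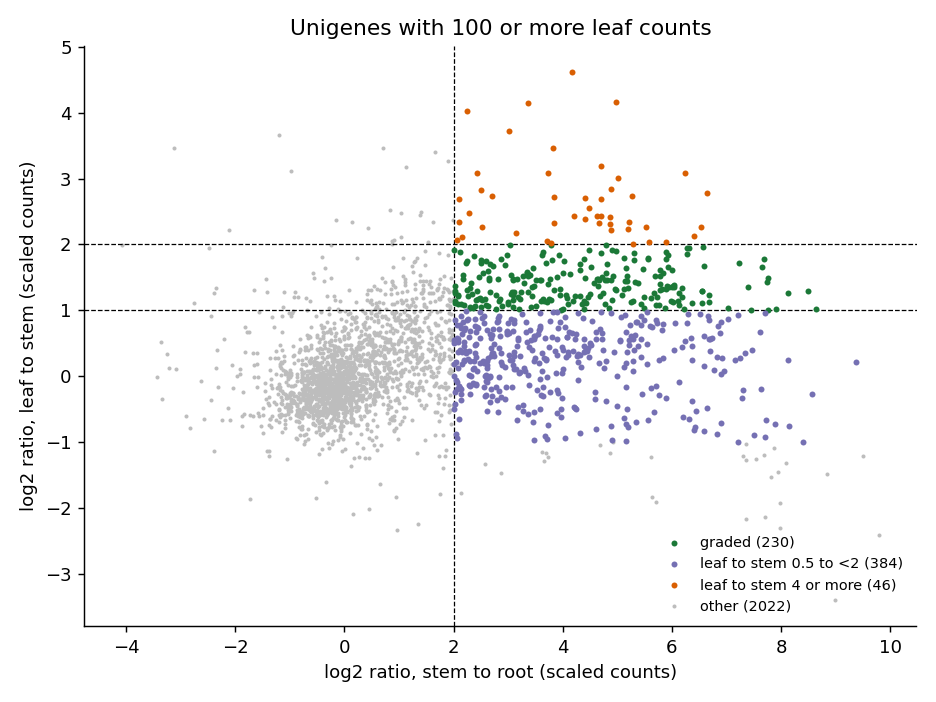
Leaf to stem ratio (vertical) against stem to root ratio (horizontal) of scaled counts, both as log2, for the 2682 unigenes outside the 100 most counted with 100 or more leaf counts. Dashed lines are the limits of the rule. The 230 graded unigenes fill the box between them, denser toward its lower edge, next to 384 unigenes with more even shoot levels below and 46 with a steeper leaf to stem step above. A count of 0 is drawn as 0.5.

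The leaf to stem limits cut through a continuous distribution. Unigene28828 (2780 nt) lay just inside the lower limit, with 115 leaf counts, 101 stem counts and 1 root count and a leaf to stem ratio of 2.01 (1.52 to 2.65). Unigene50579 (676 nt) also had a ratio of 2.01 (1.63 to 2.48), from 197 leaf counts, 173 stem counts and 19 root counts. Unigene60419 (1764 nt) lay just outside, at 1.99 (1.55 to 2.56), with 139, 123 and 45 counts in leaf, stem and root. Counting error alone is wider than the gap between these unigenes. Between ratios of 2 and 2.2 there were 48 members, and between 1.8 and 2 there were 34 unigenes that met the stem to root condition.

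At the upper limit, Unigene25350 (1515 nt) had 217 leaf counts, 96 stem counts and 6 root counts and a leaf to stem ratio of 3.99 (3.12 to 5.12). Unigene24203 (1860 nt) had 108 leaf counts, 48 stem counts and 6 root counts, with a ratio of 3.97 (2.80 to 5.70). Just outside was Unigene43322 (837 nt) at 4.02 (3.43 to 4.72), from 517 leaf counts, 227 stem counts and 10 root counts. The upper edge was thinly filled, with 16 members from 3.6 to 4 and 8 unigenes from 4 to 4.4.

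The step from stem to root, which the rule limits only from below, ran over a wide range. The stem to root ratio had a median of 17.9, with quartiles of 8.25 and 47.4, against a median of 1.33 for all 2682 unigenes. The highest ratio among the 225 members with a root count was 281. A ratio from 4 to below 8 was found for 57 members, from 8 to below 16 for 51, from 16 to below 32 for 45, from 32 to below 64 for 42, and of 64 or more for 35. The members were thus spread over the whole range, in bins that double in width. Of the 2682 unigenes, 202, 153, 118, 103 and 114 lay in the same bins, so a wide spread is not particular to the members. The graded share of these was 28.2%, 33.3%, 38.1%, 40.8% and 30.7%. From leaf to root the median ratio of the members was 46.5, and their lowest was 8.79. Both medians were the same with 3 root counts assumed for the 5 members that had none. For the stem to root median this was certain, since the lowest of their ratios was then 33.3.

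Leaf levels were higher among the members with a stem to root ratio of 16 or more than among those below it. The median leaf level was 45.8 TPM in the bin from 4 to 8, 39.9 TPM from 8 to 16, 64.1 TPM from 16 to 32, 114 TPM from 32 to 64 and 93.1 TPM at 64 or more. In the bin from 32 to 64, 22 of 42 members stood at 100 TPM or more in leaf, against 12 of 51 in the bin from 8 to 16. For all unigenes with 100 or more leaf counts in these bins, the median leaf levels were 42.6, 41.0, 50.8, 60.7 and 53.5 TPM. Few root counts stand behind the high ratios, with medians of 50, 22, 12, 7.5 and 3 counts of the members in the same order of bins.

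The stem to root intervals with the highest lower bounds were those of Unigene55189 and Unigene64936. Unigene55189 (1747 nt) had 1186 leaf counts, 891 stem counts and 15 root counts, or 198 TPM in leaf, 120 in stem and 1.34 in root, a stem to root ratio of 102 (61.7 to 184). Unigene64936 (1662 nt) had 528 leaf counts, 452 stem counts and 6 root counts, or 93.1, 64.3 and 0.57 TPM, a ratio of 130 (59.2 to 355). Both were well counted in leaf and in stem and had few counts in root.

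No root count was recorded for 5 members, out of 8 such unigenes among the 2682. A root count of 0 is compatible with 3 counts, or 0.689 CPM of the library sum outside the 100 most counted unigenes. These 5 had 100 to 145 counts in leaf and 58 to 115 in stem, so they belonged to the weakly counted members. With 3 root counts assumed, the stem to root ratio of Unigene53657 (1226 nt, 132 counts in leaf and 115 in stem) was 66.0. That of Unigene64180 (455 nt, 104 counts in leaf and 58 in stem) was 33.3. These values leave out the counting error in stem. The exact conditional binomial intervals of the stem to root ratio began lower, at 52.8 for Unigene53657 and 26.2 for Unigene64180. Unigene64180 was also the shortest member. A further 24 members had 1 to 3 root counts, and 77 in all had fewer than 10.

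At the shallow end, Unigene50743 (1135 nt) had 120 leaf counts, 56 stem counts and 24 root counts and the lowest stem to root ratio of the group, 4.02 (2.45 to 6.78). Unigene44367 (1133 nt) followed at 4.05 (2.73 to 6.12), from 107 leaf counts, 87 stem counts and 37 root counts. Just outside was Unigene3880 (1460 nt) at 3.99 (3.09 to 5.17), with 264, 206 and 89 counts in leaf, stem and root. Of the members, 10 lay between 4 and 4.4, and 14 unigenes with a fitting leaf to stem ratio lay between 3.6 and 4.

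Counting error left the membership of many unigenes uncertain, while the whole leaf to stem interval lay above 1 for each of the 230. This 95% interval lay at 2 or more for 138 members and inside the range from 2 to 4 for 99. Of all 2682 unigenes, 268 (9.99%) had a whole interval at 2 or more. More intervals crossed the lower limit than the upper one. For 92 members the interval reached below 2, for 39 it reached 4 or more, and for 0 it did both. The whole stem to root interval lay at 4 or more for 197 of the 230 members, against 586 of all 2682 unigenes (21.8%, members included). It lay at 8 or more for 138 members and at 16 or more for 79. Both intervals lay wholly inside the rule for 90 members. Depth moved with this: the members with a leaf to stem interval inside the range had a median of 559 leaf counts, and the others had 157. Because the rule used the same counts, these numbers describe precision and are not a test.

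**Figure D3:**
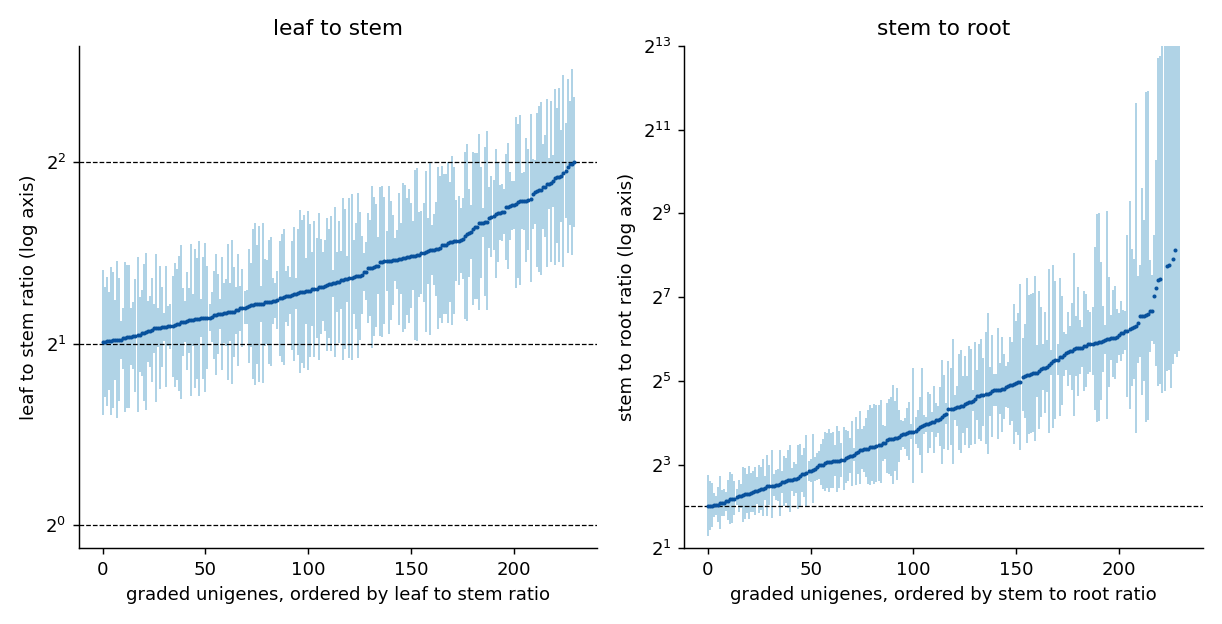
Leaf to stem ratio (left) and stem to root ratio (right) of the 230 graded unigenes on log axes, each panel in order of its own ratio, with exact conditional binomial 95% intervals for counting error. All leaf to stem intervals lie above 1, and 92 of them reach below 2. The 5 unigenes with no root count are drawn without a point, and intervals that run past the top of the right panel are cut there.

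Unigene length was not used by the rule, and the graded unigenes were short for their class. Their median length was 1268.5 nt with quartiles of 948 and 1831 nt, against a median of 1818.5 nt for the 2452 unigenes with 100 or more leaf counts that were not graded. Under 1000 nt there were 64 members (27.8%), against 354 of the others (14.4%), and over 3000 nt there were 13 members (5.65%), against 467 (19.0%). In length order, 15.6% of the unigenes from 500 to 1000 nt were graded, 12.7% from 1000 to 1500 nt, 7.90% from 1500 to 2000 nt, 5.05% from 2000 to 3000 nt and 2.71% of those of 3000 nt or more. From 500 nt on, the graded share was thus lower in each longer class, while below 500 nt 1 of 15 unigenes was graded. The share with a stem to root ratio of 4 or more, graded or not, fell as well. It was 33.3%, 33.1%, 30.1%, 21.4% and 10.2% in the same classes from 500 nt on. Of the unigenes with that ratio, 63 of 134, 77 of 201, 46 of 175, 30 of 127 and 13 of 49 were graded. The graded unigenes thus supply part of this fall, and whether the others follow length in the same way was not tested. The longest member was Unigene862 (3786 nt), with 726 leaf counts, 568 stem counts and 164 root counts, or 52.7 TPM in leaf, 33.3 in stem and 6.40 in root. Among the shortest was Unigene11814 (547 nt), with 588, 475 and 8 counts in leaf, stem and root, or 413, 269 and 3.01 TPM in the same order.

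A count minimum admits short unigenes only at high levels, so lengths were also set side by side at like leaf counts. From 100 to 200 leaf counts, the median length was 1238 nt for 106 members and 1900 nt for 1607 others. From 200 to 500 counts it was 1200 nt for 57 members and 1752 nt for 645 others, and at 500 counts or more it was 1454 nt for 67 members and 1677 nt for 200 others. The members were shorter in each of the 3 ranges. At like counts a shorter unigene has a higher TPM, so this does not separate length from level. Median leaf levels of members and others were 32.99 and 20.55 TPM, 81.41 and 47.28 TPM, and 229.88 and 128.14 TPM in the same order. Unigenes are not independent replicates, and no test of this difference was made. Whether these lengths are those of full transcripts or of assembled pieces was not tested.

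Set beside its neighbours in the map of ratios, the graded group had a lower median length than the unigenes level across the shoot, and lay close to the classes with a steeper step between leaf and stem in either direction. The 384 unigenes with a leaf to stem ratio from 0.5 to below 2 and the same stem to root condition had a median length of 1701 nt, and 13.0% of them were under 1000 nt. The 46 with a leaf to stem ratio of 4 or more had a median of 1284 nt, with 32.6% under 1000 nt. The 30 that were higher in stem, with a leaf to stem ratio below 0.5, had a median of 1345 nt, with 30.0% under 1000 nt. The 141 unigenes with the members' leaf to stem ratio but a stem to root ratio below 4 had a median of 1787 nt. These classes were made with the counts of the same 3 libraries, and their differences in length were not tested. In level, the medians were 58.7 TPM in leaf for the graded unigenes, 41.2 TPM for those level in the shoot and 68.3 TPM for the steeper ones, and in root 2.36, 4.12 and 1.10 TPM.

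**Figure D4:**
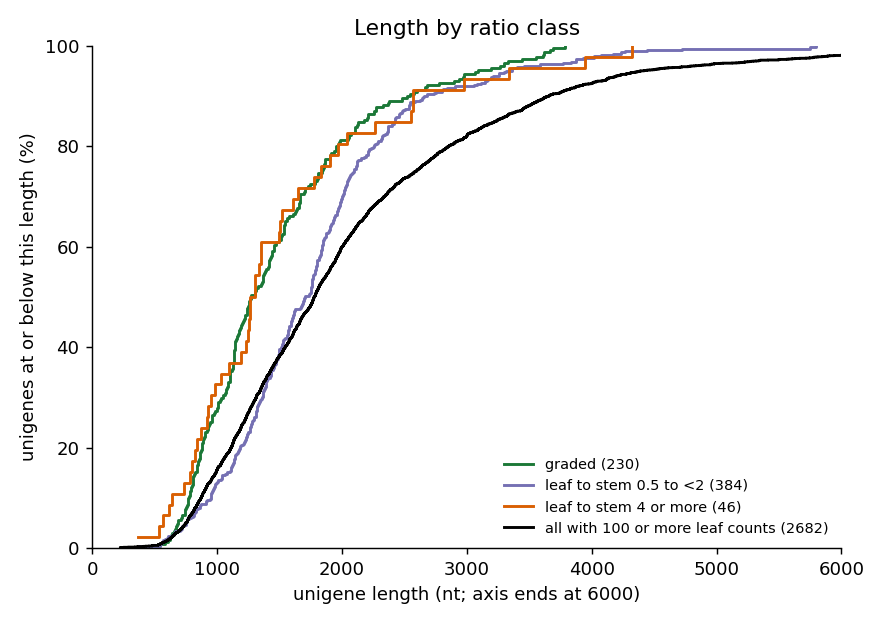
Cumulative share of unigenes (vertical, percent) at or below each length (horizontal, nt) for the graded unigenes, for both neighbouring classes with a stem to root ratio of 4 or more, and for all 2682 unigenes with 100 or more leaf counts. The graded curve runs left of the curve of all unigenes, with medians of 1268.5 and 1777.5 nt, and close to that of the steeper class.

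Some members stood next to each other in the numbering of the assembly. There were 9 runs of consecutive numbers, which held 19 members. Of the 53 members that had a unigene with 100 or more leaf counts as a direct neighbour in number, 19 (35.8%) had a graded one, against 36 of 583 unigenes that were not graded (6.17%). The 10 neighbouring pairs differed in length by 44 to 1733 nt, and their leaf to stem ratios, which the rule holds within a factor of 2 for any pair of members, differed by a factor of at most 1.29, with a median of 1.04. The like values for members that are not neighbours were not computed. Whether such neighbours are variants of 1 gene, copies or separate genes was not tested, and if they share reads they are not independent members.

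The longest run was Unigene59017, Unigene59018 and Unigene59019, of 1171, 1513 and 1703 nt. Unigene59017 had 374 leaf counts, 223 stem counts and 24 root counts, or 98.4, 47.3 and 3.39 TPM. Unigene59018 had 582 leaf counts, 359 stem counts and 12 root counts, or 114, 56.7 and 1.26 TPM. Unigene59019 had 826 leaf counts, 529 stem counts and 31 root counts, or 142, 73.2 and 2.85 TPM. All 3 were highest in leaf and lowest in root, and the longer the unigene the higher its leaf level. Their leaf to stem ratios were 2.96 (2.50 to 3.51), 2.86 (2.50 to 3.27) and 2.75 (2.47 to 3.08), which overlap within counting error. Their stem to root ratios were 16.0 (10.5 to 25.5), 51.5 (29.1 to 101) and 29.4 (20.5 to 43.7), and the intervals of Unigene59017 and Unigene59018 did not overlap.

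The size of the leaf to stem step depended on how the libraries were scaled. On the deposited TPM the same 230 unigenes had a median leaf to stem ratio of 1.78, from 1.41 to 2.80, and 158 of them fell below 2. On total counts the median was 1.83 and 144 fell below 2. With TMM factors (edgeR) and DESeq2 size factors the medians were 2.56 and 2.61, and 0 members fell below 2. Since the members start at a ratio of 2 and these scales shift all unigenes nearly alike, by less than that, each of the 230 remained higher in leaf than in stem on all 4 by construction. Over the 2682 unigenes, deposited TPM moved the log2 leaf to stem ratio by a median of -0.51 and the log2 stem to root ratio by -0.20, and total counts moved them by -0.46 and 0.38. The stem to root ratio of the same 230 had medians of 15.6 on deposited TPM, 23.3 on total counts, 16.9 with TMM factors and 16.8 with DESeq2 size factors. A stem to root ratio below 4 was found for 14 of the 230 on deposited TPM, 9 with DESeq2 size factors and 6 with TMM factors.

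**Figure D5:**
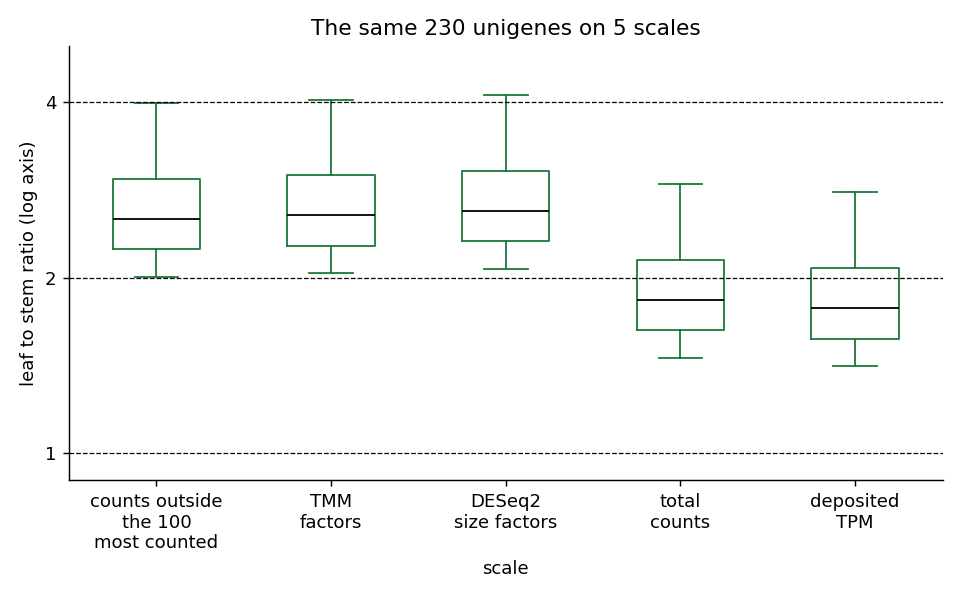
Leaf to stem ratio (log axis) of the same 230 unigenes on 5 scales. Boxes show quartiles and medians, and whiskers run to the lowest and highest member. Dashed lines mark ratios of 1, 2 and 4. All boxes lie above 1, and on total counts and deposited TPM the medians, 1.83 and 1.78, lie below the limit of 2.

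Ratios inside the same limits were also found below the leaf minimum of 100 counts, in a smaller share of the unigenes. Among 20652 unigenes outside the 100 most counted with 10 to 99 leaf counts, 584 had such ratios, against 230 of 2682 at 100 or more. Counting error is larger at low counts, and how many of the 584 lie inside the limits through it was not tested. Of the 584, 23 had 90 to 99 leaf counts, against 26 members with 100 to under 110. How many unigenes in all lay in these narrow ranges is not given here.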

How the data were processed

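Per the labels' protocols, RNA of each tissue was taken up on oligo(dT) beads and made into strand-specific libraries. The submitters' processing notes name Trimmomatic and RSEM. The assembler and the aligner are not named in the sources used here. The deposited files hold, per unigene, a length, an effective length, an RSEM expected count, a TPM and an FPKM value, per the file headers. In the deposited files 100% of expected counts were exact whole numbers, and they entered as they stand; how reads with several targets were treated is not known. TPM recomputed from counts of 20 or more was within 2% of the deposited TPM in 100% of cases. The authors' merged table held the same FPKM, with 0 differences.

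Ratios used expected counts scaled by library sums without the 100 most counted unigenes, with exact conditional binomial 95% intervals (scipy 1.17.1, numpy 2.4.6, pandas 2.3.3, Python 3.11.15). The code was run on simulated libraries that held counting error only, with graded unigenes placed well inside the limits. That run does not cover unigenes near the limits or spread beyond counting error. edgeR 4.0.16 and DESeq2 1.42.0 (R 4.3.3) gave alternative scaling factors only, because a single library per tissue allows no test. Intervals and limits cover counting error only. The members, lists and classes were chosen with earlier results of these data known. Named unigenes are at most 2 at each end of the orders by leaf TPM, ratios, interval bounds and length, 1 just outside each ratio limit, the longest run of numbers, and, chosen after its values were seen, Unigene53657. Alternatives were other scales, numbers set aside, leaf minimums and zero values, and thinning to 1432056 counts.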

Additional observations from a re-analysis of the deposited data

How the results depend on the processing

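Of 90 values recomputed under 10 alternatives, 52 stayed within 1.5 times (counts), within the exact binomial interval (shares) or within the binomial interval of the median over members, and 38 moved. The median stem to root ratio and the median length stayed within theirs under each of the 10. The rule applied on total counts gave 117 graded unigenes, of which 86 were among the 230, and on deposited TPM it gave 91, of which 69 were. A leaf minimum of 50 gave 373 and one of 200 gave 124. The share of counts outside the most counted unigenes in leaf, stem and root was 7.91%, 3.12% and 0.195% with TMM factors, 8.21%, 3.28% and 0.1998% with DESeq2 size factors, 3.43%, 0.996% and 0.0937% on total counts and 2.66%, 0.770% and 0.0510% on deposited TPM. It was 6.82%, 2.64% and 0.189% with 200 unigenes set aside, 8.74% in leaf and 3.39% in stem with 50 set aside, 8.77%, 3.45% and 0.229% with a minimum of 50, 7.07%, 2.79% and 0.173% with a minimum of 200, and 7.89%, 3.10% and 0.2001% after thinning. Members with both intervals inside the rule numbered 31 on total counts and 24 on deposited TPM, where the median leaf to stem ratio was 2.42. After thinning they numbered 60, against 90 as reported, which lies at the edge of the 1.5 times allowed and was counted as stayed. Members with no root count numbered 3 on total counts, 2 on deposited TPM, 22 and 0 with minimums of 50 and 200, and 21 after thinning, which removes root counts. Taking a count of 0 as 1 changed none of the 9 values, which are among the 52. This was certain in advance, because the members with no root count lie far above the stem to root limit and median. No replicate was there to leave out. No paired analysis was possible because the tissues have a single library each. Depth limits each statement on root levels near 0.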
